A study of Danio rerio with 4 samples.

Results

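The miR-193 and miR-365 families were followed in small RNA libraries of neural crest cells (NCC) and non-NCC from zebrafish embryos at 16 and 28 hours post-fertilization (hpf). The members are every row of the deposited tables whose name begins with dre-miR-193 or dre-miR-365, and they came to 5 of 372 rows: dre-miR-193b-5p (written miR-193b-5p from here on, and so for the others), miR-193b-3p, miR-193a-5p, miR-193a-3p and miR-365. The families were chosen by the ratio of miR-193b-5p of NCC over non-NCC at 16 hpf, which among well-covered miRNAs was exceeded by let-7f alone, so its values at that stage are a description and no test of it is given. The same holds for its arm shares and its places among rows and hairpins, which rest on the same reads. All embryos carried Tg(sox10:eGFP,mRFP), in which the promoter of the crest transcription factor gene sox10 drives both fluorescent proteins. GFP-positive cells were sorted as NCC and GFP-negative cells as non-NCC, at a stage before migration (16 hpf) and at one during differentiation of crest derivatives (28 hpf). Each of the 4 groups is 1 library, no number of pooled embryos was found in the sources used here, and the sox10 promoter is also active in some cells outside the crest, such as those of the ear. The tables list miRNAs only, so that the crest genes foxd3 and sox10 could not be read in these libraries. To check the sort, the paper measured foxd3 and the non-crest marker tbx5a by RT-qPCR in both populations.

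A miRNA hairpin is cut to a short duplex, and usually one strand (the guide) is kept in Argonaute whereas the other (the passenger) is mostly degraded. The names give the arm of the hairpin from which a strand comes, 5p or 3p, so that the share of 5p reads describes which strand accumulated. For miR-193, the 3p strand is the one usually regarded as the guide, and miR-193a-3p and miR-193b-3p share the seed by which targets are recognized. In human melanoma cells, miR-193b represses cyclin D1, a driver of the cell cycle. In human leukemia cells, miR-193a represses the receptor gene KIT, whose zebrafish counterpart kita acts in pigment cells. miR-365 responds to mechanical load in chick cartilage cells, and in mouse the miR-193b and miR-365 pair is known from brown fat.

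The gene table of the GRCz12tu assembly names 6 precursor genes for the members, and every miR-365 gene had a miR-193 gene as its direct neighbor, with no other annotated gene between them. On chromosome 3, mir193b stood beside mir365-1, and mir193a-1 beside dre-mir-365-2, which both lie in an annotated long noncoding RNA. On chromosome 6, mir193a-2 stood beside dre-mir-365-3. The mature rows do not keep these genes apart: miR-193b has 1 gene, whereas the rows of miR-193a collect 2 genes and that of miR-365 collects 3. All read counts of both miR-193a rows were even and those of miR-365 were multiples of 3. Such counts would also arise if each read had been counted once at every gene, which was not tested. They were found in 49.0% of the 49 rows with 2 genes and in 29.2% of the 24 rows with 3.

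The deposited values are normalized counts, in which the 2 libraries of a stage were scaled together and apart from the other stage. Whole reads could be recovered from them. Summed over the 372 rows, the NCC libraries held 2340716 reads (16 hpf) and 6502 reads (28 hpf), against 140132389 and 1099312 in the non-NCC libraries of these stages. Reads outside these rows are not in the totals, and a read counted at several genes would be in them more than once. A single NCC read was worth 7.72 normalized counts and a non-NCC read 0.130 at 16 hpf, whereas these values were 11.4 and 0.0877 at the later stage. Intervals given below are 95% Clopper-Pearson intervals of the reads. They cover counting error only, since no group has a replicate and, with no molecular identifiers, several reads may stem from 1 molecule. For 0 reads, a share is bounded by the limit of 3 reads, whereas the upper end of a ratio is that of its interval, which is wider because it also covers the reads of the other library. In sorted populations, fewer cells with a miRNA and less of it per cell cannot be told apart.

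At 16 hpf, the 5p arm of miR-193b was far more abundant in NCC than in non-NCC. The ratio of its 3p arm was near 1, but it rests on 3 NCC reads and has a wide interval. miR-193b-5p was read 25 times in NCC and 66 times in non-NCC, which amounts to 193 normalized counts in NCC, against 8.55 in non-NCC. Its level was thus 22.6 times as high in NCC, with an interval from 13.6-fold to 36.3-fold (log2 ratio 4.50, from 3.77 to 5.18). An equal level would have given 1.11 NCC reads. Shares are given in rpm, that is reads per 1000000 of the reads summed over the rows of the library. miR-193b-5p took 10.7 rpm in NCC (from 6.91 to 15.8) and 0.471 in non-NCC (from 0.364 to 0.599). It held place 76 by abundance among 226 rows with reads in NCC and place 212 among 339 in non-NCC. The number of rows with reads depends on the depth of a library, so these places are not compared.

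miR-193b-3p, the arm usually regarded as the guide, was read 3 times in NCC and 186 times in non-NCC. This gives 23.2 normalized counts in NCC, against 24.1 in non-NCC (log2 ratio -0.06, from -2.35 to 1.51). Equal levels would have given 3.12 NCC reads, close to those counted, but the interval still allows an NCC level as low as 0.196 or as high as 2.85 times that of non-NCC. The 5p arm was chosen for its ratio and the 3p arm was not, so nothing is read from the distance between them.

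The rarer members gave few reads in NCC. miR-193a-5p had 2 reads in NCC and 2 in non-NCC, that is 15.4 normalized counts in NCC, against 0.259 in non-NCC. The log2 ratio of 5.90 (from 2.11 to 9.68) is the highest of the members, but at that non-NCC level a single NCC read would already have put it 29.8-fold higher in NCC. With the reads of both libraries divided by its 2 genes, 1 read was left on each side and the interval widened to between -0.40 and 12.2. miR-193a-3p had 0 of 2340716 reads in NCC, which allows a share of up to 1.28 rpm, and 16 non-NCC reads (0.114 rpm, 2.07 normalized counts). An equal level would have given 0.268 NCC reads, so that a lower level in NCC was not detectable at this depth, and the upper end of the log2 interval was 3.95.

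miR-365 was higher in NCC by its ratio, without its interval leaving an equal level. It had 3 NCC reads and 39 non-NCC reads (23.2 normalized counts in NCC, against 5.05 in non-NCC), a log2 ratio of 2.20 (from -0.14 to 3.85). With reads divided by its 3 genes, 1 NCC read stood against 13 non-NCC reads, and the interval ran from -3.21 to 4.93. miR-365 and miR-193b-3p, with the same 3 reads, shared place 147 in the NCC library.

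**Figure D1:**
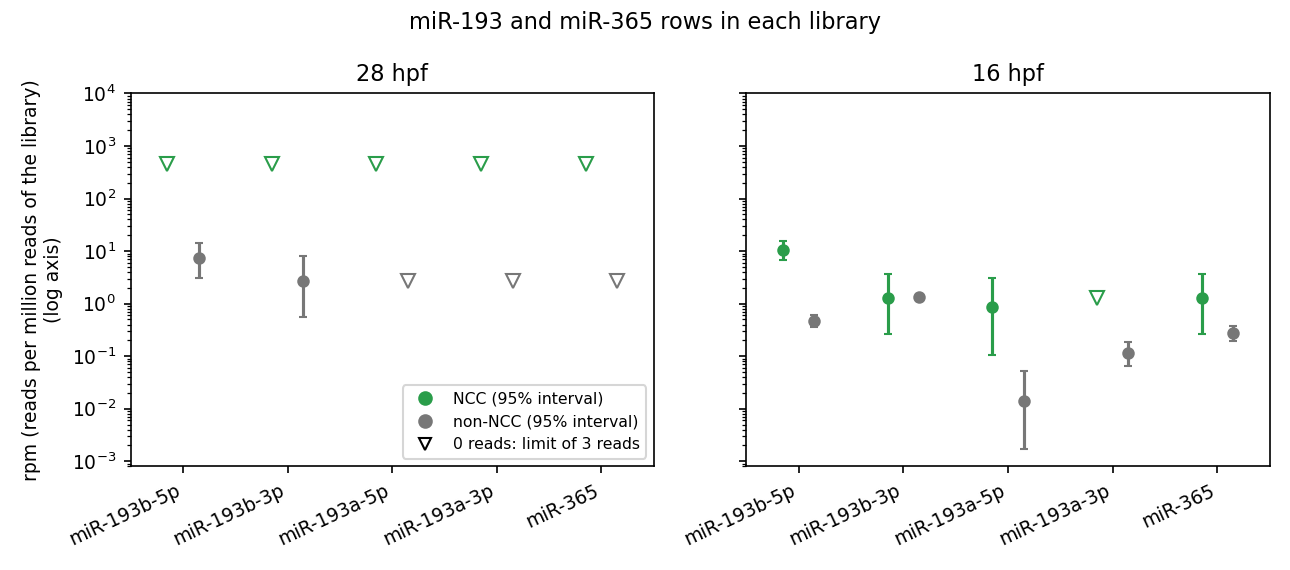
Shares in rpm (log axis) for the 5 members, at 28 hpf in the left panel and at 16 hpf in the right panel, with NCC in green and non-NCC in gray. Points carry 95% Clopper-Pearson intervals, and open triangles mark the share that 3 reads would make where a member had 0 reads. At 16 hpf the NCC and non-NCC intervals of miR-193b-5p, which was chosen by this contrast, are apart. Those of miR-193b-3p, with 3 NCC reads, overlap, and nothing is read from this difference between the arms. At 28 hpf the NCC limit of 461 rpm lies above every measured share.

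Of the 5 members, 4 had reads in both libraries at 16 hpf, and 3 of these 4 exceeded 2-fold in the direction of NCC (miR-193b-5p, miR-193a-5p and miR-365). Over the whole table this held for 26.7% of 225 rows with reads in both libraries. None of the 4 exceeded 2-fold in the direction of non-NCC, which 25.3% of the 225 rows did. The median log2 ratio was 3.35 over the 4 members and 0 over the 225 rows, a value the scaling sets. This contrast chose miR-193b-5p, and a rare miRNA enters the 225 only if it gave an NCC read, which places it high, so nothing is read from these counts. Of the 60 rows over 2-fold in NCC, 21 had at most 3 NCC reads, among them miR-193a-5p and miR-365. Where 10 reads were required on each side, miR-193b-5p was the single member left.

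The arms of each hairpin were also summed. The ratio of a sum lies between those of its arms, so nothing is read from hairpins being closer to each other than their arms. miR-193b, with 28 reads in NCC and 252 in non-NCC, reached an NCC level 6.62 times that of non-NCC (log2 ratio 2.73, from 2.11 to 3.29). miR-193a, with 2 NCC reads and 18 non-NCC reads, had the same ratio of 6.62, with a log2 interval from -0.42 to 4.79. miR-365, for which the tables hold 1 row without an arm, was 4.58-fold higher in NCC. All 5 rows together gave 33 NCC reads and 309 non-NCC reads, that is 255 normalized counts in NCC, against 40.0 in non-NCC (6.36-fold, log2 ratio 2.67, from 2.11 to 3.19). This sum took 14.1 rpm in NCC and 2.21 in non-NCC. In NCC, miR-193b-5p made up 75.8% of the reads of the sum and miR-193b-3p 9.09%, whereas in non-NCC miR-193b-5p made up 21.4% and miR-193b-3p 60.2%. The sum is thus mostly the 5p arm of miR-193b in NCC and mostly its 3p arm in non-NCC. The ratios of the miR-193b hairpin and of all 5 rows rest mostly on the NCC reads by which the families were chosen. They are a description, and no rise of the family as a whole is read from them.

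**Figure D2:**
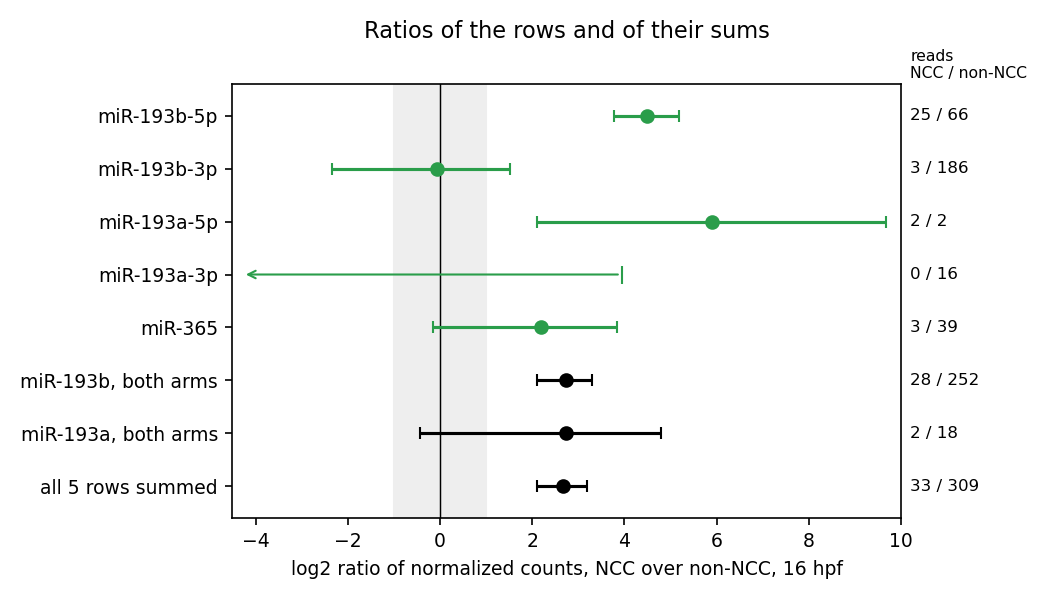
log2 ratio of normalized counts of NCC over non-NCC at 16 hpf for each member (green) and for sums of rows (black), with 95% Clopper-Pearson intervals and the reads of NCC and non-NCC at the right. The gray band marks ratios within 2-fold, and the arrow stands for miR-193a-3p, which had 0 NCC reads and has an upper end only (3.95). miR-193b-5p, by whose ratio the families were chosen, has an interval from 3.77 to 5.18, and miR-193b-3p one from -2.35 to 1.51. The sums of miR-193b and of all 5 rows contain miR-193b-5p.

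The arm usage of miR-193b does not depend on the scaling of the libraries, but it is made of the same 5p reads by which the family was chosen and adds no further evidence. In NCC at 16 hpf, 25 of 28 miR-193b reads came from the 5p arm, or 89.3% (from 71.8 to 97.7%). In non-NCC at 16 hpf, 66 of 252 reads did, or 26.2% (from 20.9 to 32.1%). There were thus 8.33 reads of 5p for each read of 3p in NCC and 0.355 in non-NCC. For miR-193a, both of the 2 NCC reads were 5p, whereas 2 of 18 non-NCC reads were (11.1%, from 1.38 to 34.7%). Its NCC interval reached from 15.8 to 100% and overlapped that of non-NCC.

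The arm shares of all hairpins are given as the background of this value, whose place among them also follows from the choice. The tables hold both arms of 113 hairpins, of which 57 had at least 10 summed reads in each 16-hpf library. The 5p share differed between NCC and non-NCC by a median of 1.11 percentage points in size, and in 47 of the 57 by less than 10. Many of the 57 had nearly all their non-NCC reads on 1 arm, which leaves the share little room to differ. Where each arm held at least 10% of the non-NCC reads, as for miR-193b, most pairs differed by at least 10 points. A large difference was thus not rare among hairpins of like arm usage. miR-193b, 63.1 points higher in NCC, had the second place of the 57 in that direction. It stood behind miR-130c, of which 96 of 104 reads were 5p in NCC and 379 of 2843 in non-NCC (92.3% in NCC and 13.3% in non-NCC), and before miR-221 (53.2% in NCC and 19.7% in non-NCC). At the other end, the 5p share was lower in NCC for miR-16c, with 36.0% in NCC and 79.6% in non-NCC. The same direction held for miR-222a (16.0% in NCC and 47.9% in non-NCC) and miR-30e (72.4% in NCC and 87.6% in non-NCC). In 9 of the 10 pairs that differed by at least 10 points, miR-193b among them, the arm with fewer reads in non-NCC had the larger share in NCC, and miR-222a was the exception. An arm with a share under 10% in non-NCC can rise but cannot fall by 10 points, so nothing is read from this count. Over the 57 pairs the arm with fewer reads in non-NCC had a larger share in NCC in 23 and a smaller one in 31, but in 13 of these 31 equal shares would have given it less than 1 NCC read. In 6 of the 57 pairs the arm with most reads was not the same in both libraries, and miR-193b was one of them.

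**Figure D3:**
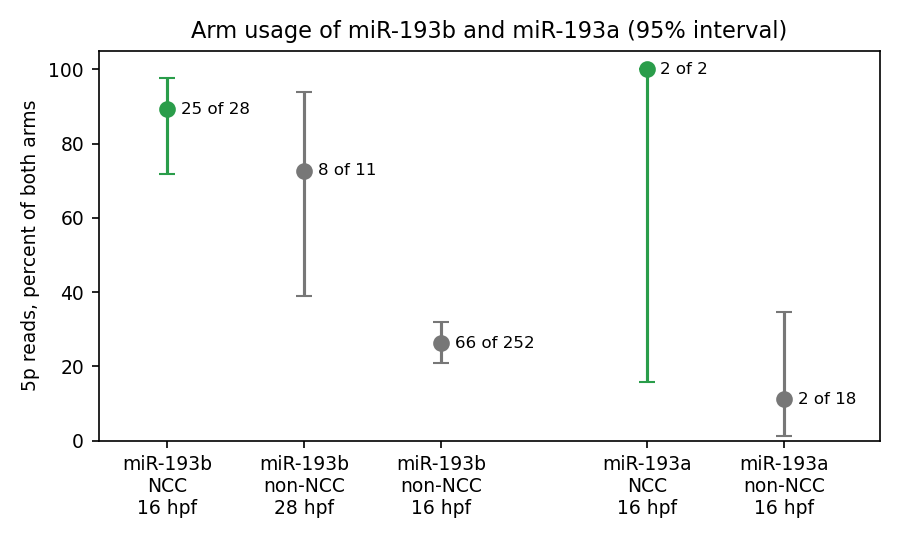
Share of 5p reads among the reads of both arms (percent), for miR-193b in NCC at 16 hpf and in non-NCC at 28 and 16 hpf, and for miR-193a in NCC and non-NCC at 16 hpf. Bars are 95% Clopper-Pearson intervals, and the numbers give 5p reads of all reads. For miR-193b, the non-NCC share at 16 hpf (26.2%) lies below both the NCC share (89.3%) and the non-NCC share at 28 hpf (72.7%).

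**Figure D4:**
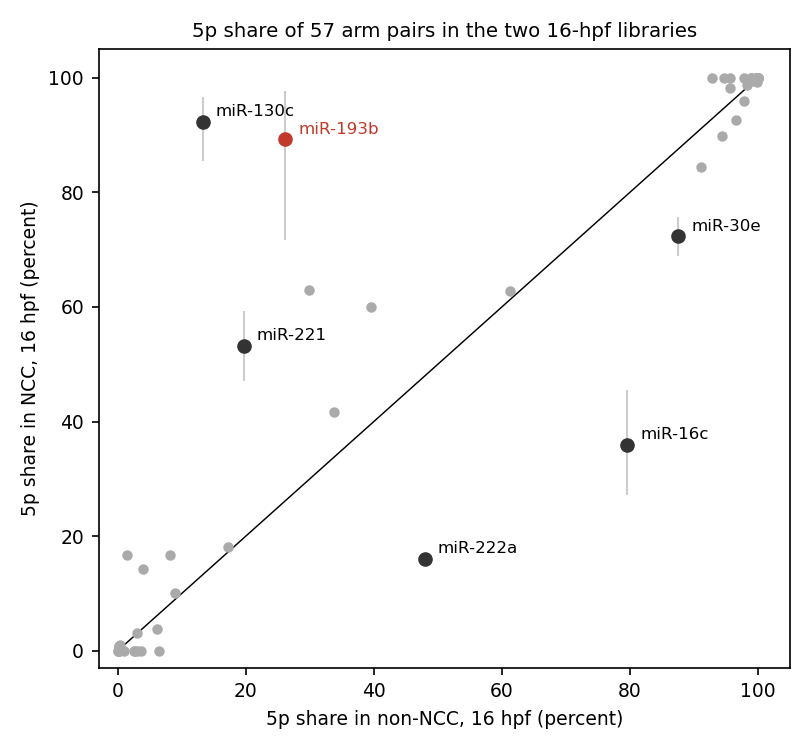
5p share in NCC (vertical axis, percent) against 5p share in non-NCC (horizontal axis, percent) at 16 hpf for 57 hairpins with at least 10 summed reads in each library. The line marks equal shares, and the hairpins with the 3 largest differences in each direction are named, with 95% intervals of the NCC share. miR-193b (red) lies 63.1 points above the line, next to miR-130c.

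The rows over 2-fold in NCC were also set beside the row of their opposite arm. Of the 60 rows over 2-fold in NCC, 32 had a row for the other arm. That arm was itself over 2-fold in NCC in 4 of them, within 2-fold in 8, over 2-fold in non-NCC in 5, and without reads in a library in 15. miR-193b-5p belongs to the 8, and miR-193a-5p, whose 3p arm had 0 NCC reads, to the 15. The arms of these 15 have no ratio and cannot be placed on either side of 2-fold. Of the 32 rows, 18 had at least 10 NCC reads. The 4 rows with both arms over 2-fold come from hairpins that are counted once from each arm. Some of the 8 arms within 2-fold lay just under it, the highest at a log2 ratio of 0.96. miR-193b-3p rests on 3 NCC reads, and its interval reaches past 2-fold (upper end 1.51), so nothing is read from these counts.

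By its ratio at 16 hpf, miR-193b-5p held the second place among 103 rows that reached 10 reads in each library. The microRNA let-7f, a member of the let-7 family that restrains growth, was first with 51 NCC reads and 93 non-NCC reads (log2 ratio 5.03, from 4.51 to 5.54). miR-130c-5p followed with 96 NCC reads and 379 non-NCC reads (log2 ratio 3.92, from 3.58 to 4.24), miR-125b-2-3p with 24 and 102 (log2 ratio 3.81, from 3.10 to 4.46) and miR-222a-3p with 9027 and 61966 (log2 ratio 3.12, from 3.09 to 3.15). The intervals of let-7f, miR-130c-5p and miR-125b-2-3p each overlap that of miR-193b-5p, so that its place among them is not settled by the reads. The interval of let-7f lies above those of miR-130c-5p and miR-125b-2-3p, which overlap each other. The interval of miR-222a-3p lies below that of miR-193b-5p, but the latter does not allow for the choice of miR-193b-5p by its ratio. At 28 hpf, let-7f, miR-130c-5p and miR-125b-2-3p had, like miR-193b-5p, 0 NCC reads, and miR-222a-3p had 7.

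At 28 hpf, none of the members had a read in the NCC library. With 0 of 6502 reads, a share of up to 461 rpm is allowed, which is far above the 10.7 rpm of miR-193b-5p in NCC at 16 hpf. At that share, 0.0694 reads would have been expected in the NCC library at 28 hpf. The zeros therefore say nothing on a loss of these miRNAs from NCC. In non-NCC, miR-193b-5p had 8 reads (0.702 normalized counts) and miR-193b-3p had 3 (0.263 normalized counts), whereas miR-193a-5p, miR-193a-3p and miR-365 had 0 of 1099312 reads, which allows a share of up to 2.73 rpm. An equal level in both libraries would have given 0.0615 NCC reads of miR-193b-5p, and its log2 ratio was bounded only from above, at 6.25. No member could thus be placed among the 49 rows with reads in both libraries at this stage, of which 24.5% were over 2-fold higher in NCC and 34.7% over 2-fold higher in non-NCC.

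In the non-NCC libraries, miR-193b could be followed across the stages. Because the stages were scaled apart, only shares are set side by side. miR-193b-5p took 7.28 rpm at 28 hpf (from 3.14 to 14.3) and 0.471 at 16 hpf, or 15.5 times as much at 28 hpf. miR-193b-3p took 2.73 rpm at 28 hpf (from 0.563 to 7.98) and 1.33 at 16 hpf (from 1.14 to 1.53), and these intervals overlap. The miR-430 family, which clears maternal mRNA, made up 66.7% of the summed reads of the later non-NCC library (28 hpf). In the earlier one (16 hpf) it made up 91.7%. With the miR-430 reads left out of the total, miR-193b-5p had 3.83 times as large a share at 28 hpf and miR-193b-3p 0.509 times. The direction for the 3p arm thus turned with the total used. The 5p share of the miR-193b reads, which needs no total, was 8 of 11 reads at 28 hpf, or 72.7% (from 39.0 to 94.0%), and 26.2% at 16 hpf. The interval at 28 hpf overlaps that of NCC at 16 hpf, and the share at 16 hpf entered the ratio by which miR-193b was chosen. Among 72 hairpins with at least 10 summed reads in both non-NCC libraries, the gain of 46.5 points was the highest, from the 11 reads at 28 hpf. The next gains were those of miR-200a, with 65.9% at 28 hpf and 29.8% at 16 hpf, and miR-210, with 78.9% at 28 hpf and 49.4% at 16 hpf. Changes of a like size were found in the other direction, for miR-16c, with 23.9% at 28 hpf and 79.6% at 16 hpf, and for miR-2188, with 26.0% at 28 hpf and 72.3% at 16 hpf.

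Other cell types were checked by 25 miRNAs known to mark them. At 16 hpf, 19 of the 25 had reads in both libraries. Of these 19, 2 were over 2-fold higher in NCC, namely miR-133a-3p of muscle and miR-451 of blood. In the other direction, 11 of the 19 were over 2-fold higher in non-NCC. Over all 225 rows with reads in both libraries, 26.7% were over 2-fold higher in NCC and 25.3% in non-NCC. The remaining 6 were at 0 in NCC: miR-1, miR-499-5p, miR-133b-3p and miR-133c-3p of muscle, miR-144-3p of blood and miR-9-3p of neural cells. The summed normalized counts of the muscle miRNAs were 633 in NCC and 611 in non-NCC, and those of the blood miRNAs 355 in NCC and 736 in non-NCC. They were 108 in NCC and 370 in non-NCC for endothelium, 8677 in NCC and 10066 in non-NCC for epithelia, and 3389 in NCC and 9432 in non-NCC for neural cells. Most of the epithelial sums came from miR-205-5p (1071 NCC reads and 63931 non-NCC reads). Of the 8 epithelial miRNAs, 5 were over 2-fold higher in non-NCC and 0 in NCC. Most of the muscle sum in NCC came from miR-133a-3p (64 reads), with 4 of the 6 muscle miRNAs at 0 there. Near-equal sums are thus not read as equal content of these cells. At 28 hpf, 20 of the 25 were at 0 in NCC. Of the 5 with reads in both libraries, 3 were over 2-fold higher in NCC (miR-205-5p, miR-200a-3p and miR-219-5p) and 1 in non-NCC. Over all 49 such rows these shares were 24.5% and 34.7%. miR-200a-3p had 29 non-NCC reads, each worth 0.0877, so that 1 NCC read, worth 11.4, would already have put it over 2-fold in NCC. The epithelial sums at 28 hpf were 787 in NCC and 150 in non-NCC, and the muscle sums 22.8 in NCC (all of it miR-133a-3p) and 68.7 in non-NCC. Those of neural cells were 342 in NCC and 409 in non-NCC. Scaling to library totals, which raises all log2 ratios of this stage by 0.379, would turn this direction. Blood and endothelium were at 0 in NCC, with 10.7 and 2.10 in non-NCC. Both are below the 11.4 that 1 NCC read was worth, so a lower level in NCC was not detectable. The part of these cell types in the values of the miR-193 and miR-365 rows was not tested.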

How the data were processed

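Sorted NCC and non-NCC of both stages (16 and 28 hpf) each gave 1 small RNA library. The authors aligned the reads with Bowtie (GRCz11 is the build in the submitters' processing notes), counted them with HTSeq and normalized them, and DESeq2 is named for their differential analysis. Versions, settings and the treatment of reads matching several genes are not given in the sources used here. The labels name a column kit and single-end reads, whereas the methods name TRIzol and paired-end reads. The deposited values are a signal, the read count divided by the size factor of the library, in 1 table per stage.

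Division of a column by its smallest value above 0 gave whole numbers for 100% of the entries of every library (no quotient was off by more than 4.02e-07), which were taken as reads. A two-sided exact binomial test on the reads of all rows with Benjamini-Hochberg adjustment, which compares libraries and not populations and was tested on simulated data, called 111 of 340 rows (32.6%) in the 16-hpf table and 19 of 239 (7.95%) in the 28-hpf table, with adjusted p-values under 0.05. It was not read for the members. Ratios, shares and arm shares were given with 95% Clopper-Pearson intervals, a limit of 3 reads for zeros and the 2-fold criterion of the study. Besides the members, miRNAs are named by a rule: up to 2 rows above and 3 below miR-193b-5p by ratio, and the 3 arm pairs at each end. miR-200a, miR-210, miR-16c and miR-2188 in the stage comparison were named after their values were seen. The members and lists were chosen with earlier results of these data known. Precursor genes were matched by name for 370 of 372 rows in RefSeq's GRCz12tu table, used for names and neighbors only. Alternatives were scaling to library totals with and without miR-430, edgeR's TMM factors, 0.5 reads or 0.0438 (the plotting pseudocount) added, division by precursor genes, and other thresholds and read minimums. Python 3.11.15, numpy 2.4.6, pandas 2.3.3, scipy 1.17.1, matplotlib 3.10.9, R 4.3.3 and edgeR 4.0.16 were used.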

Additional observations from a re-analysis of the deposited data

How the results depend on the processing

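Of 72 alternative values, 65 stayed close to those reported. Some of these could not move, such as the arm shares of miR-193b on division by genes, since it has 1 gene. Others counted as close although 2 members in place of 3 were over 2-fold higher in NCC. These were the settings with at least 3 reads in both libraries and with the interval on one side of 1. The log2 ratio of miR-193b-5p at 16 hpf ranged from 4.27 (edgeR's TMM factors, which lowered all ratios by 0.23) to 4.55, and the 5p shares of miR-193b stayed within their intervals. With at least 10 reads in both libraries, 1 member in place of 3 was over 2-fold higher in NCC. With the plotting pseudocount, 1 in place of 0 was over 2-fold higher in non-NCC: miR-193a-3p had a log2 ratio of -5.59 there and of 0.85 with 0.5 reads added. In the same way, miR-193b-5p at 28 hpf had -4.09 and 2.94, and miR-193b-3p -2.81 and 4.22, because both have 0 NCC reads. With miR-430 left out of the totals, the summed share at 16 hpf was 176 rpm in NCC and 26.7 in non-NCC, and at 28 hpf the limit was 1697 in NCC and the share 30.0 in non-NCC. With reads divided by precursor genes, the upper end of the interval of miR-193a-3p was 5.13. The rank of miR-193b among arm pairs was 2 also at a minimum of 25 reads, and at 100 reads the pair dropped out. Libraries had no replicates, so none could be left out, and no paired analysis was possible because each group has 1 library. The depth of the NCC libraries limits every statement on miR-193a and miR-365, and all at 28 hpf.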
